A study of Rattus norvegicus with 32 samples.

Results

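The genes that build elastic fibres and their microfibrils were followed in the uterus of adult Sprague-Dawley rats exposed to bisphenol A (BPA) or ethinyl estradiol (EE2). The 10 members, Eln, Fbn1, Fbn2, Fbln5, Efemp1, Efemp2, Ltbp1, Ltbp2, Ltbp3 and Ltbp4, were taken by name: their NCBI gene IDs were looked up in the deposited table of 17327 genes. All 10 were found, and all 10 passed the filter on low counts that left 13312 genes for testing.

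Rats came from the Sprague-Dawley colony named NCTR in the labels, and RNA came from whole uterus about 1 year after birth. Doses were given by gavage (a tube into the stomach): the mother was dosed from gestation day 6, and each pup itself from postnatal day 1 onward. Control rats received the vehicle alone, 0.3% carboxymethylcellulose. BPA was given at 5 daily doses, 2.5, 25, 250, 2500 and 25000 µg/kg body weight, and EE2 at 2, 0.05 and 0.5 µg/kg; groups are called by compound and dose below. BPA is a plastics monomer that binds estrogen receptors, and EE2 is the synthetic estrogen of contraceptive pills, included as a reference. There were 32 libraries, 4 from each of 8 groups, of 11777809 to 24661856 counts. The labels tie no library to an animal, litter, batch or stage of the estrous cycle, so p-values measure the spread between these libraries, which may be technical in part. All 7 comparisons with vehicle share the same 4 control libraries.

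Elastic fibres consist of a core of crosslinked elastin, laid down on a scaffold of fibrillin microfibrils. Fibulins bring the soluble elastin precursor to that scaffold and to the crosslinking enzymes. Latent TGF-beta binding proteins (LTBPs) are fibrillin relatives that sit on the microfibrils, and several of them hold the growth factor TGF-beta there in an inactive form. In the uterus elastic fibres lie in the muscle wall, in vessel walls and in the connective tissue between them, and they are rebuilt around pregnancy.

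Levels are in CPM, a gene's counts as a share of its library scaled to a common total, on library sizes scaled by the trimmed mean of M values (TMM), so they compare 1 gene between libraries and not different genes with each other. Log2 fold changes, their standard errors (SE) and p-values come from edgeR's quasi-likelihood test, fitted over all 8 groups and 13312 genes with Benjamini-Hochberg adjustment, and a gene is said to have risen or fallen only where its adjusted p is under 0.05. The uterine markers Esr1 and Pgr were present in every library. Some libraries agreed less well with the rest: BPA 2.5 libraries 1 and 3, BPA 250 library 1 and BPA 25000 library 3 had median correlations with the other libraries of 0.892 to 0.926, against 0.938 to 0.960 elsewhere. The same BPA 2.5 libraries had summed markers of ciliated cells at 460 and 333 CPM, against 1.26 to 3.48 CPM in the controls. In the other exposed libraries that sum ran from 2.08 to 135 CPM, with all 4 of BPA 25 at 25.8 to 46.7 CPM. Where leaving out the 4 libraries that stood apart ended a call printed below in a comparison with control or a dose trend, that is stated; no fit left out libraries for their ciliated markers alone.

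Promoters of 9 of the 10 members were found in RefSeq (assembly GRCr8), as the 250 bases before and 50 bases after the annotated start. The 4 below are shown because the results turn on these genes: Ltbp3, Ltbp4 and Efemp2 varied together between libraries, and Efemp1 is the member that rose in most comparisons. The sequences are the 250 bases before the start, read 5′ to 3′ on the gene's strand. Capitals mark the GC box (GGGCGG, either strand), a motif that the general transcription factor Sp1 binds.

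Efemp1 (chr14:106811614-106811863, plus strand): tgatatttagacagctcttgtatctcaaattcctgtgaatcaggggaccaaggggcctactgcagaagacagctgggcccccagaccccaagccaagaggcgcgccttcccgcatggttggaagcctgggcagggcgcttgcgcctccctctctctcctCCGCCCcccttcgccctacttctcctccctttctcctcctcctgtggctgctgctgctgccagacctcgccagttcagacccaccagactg
Ltbp3 (chr1:212458955-212459204, plus strand): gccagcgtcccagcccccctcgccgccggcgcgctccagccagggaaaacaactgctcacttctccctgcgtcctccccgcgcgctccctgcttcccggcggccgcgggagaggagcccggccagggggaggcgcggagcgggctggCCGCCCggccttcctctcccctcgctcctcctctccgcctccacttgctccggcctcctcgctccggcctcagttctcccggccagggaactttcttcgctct
Ltbp4 (chr1:91759808-91760057, minus strand): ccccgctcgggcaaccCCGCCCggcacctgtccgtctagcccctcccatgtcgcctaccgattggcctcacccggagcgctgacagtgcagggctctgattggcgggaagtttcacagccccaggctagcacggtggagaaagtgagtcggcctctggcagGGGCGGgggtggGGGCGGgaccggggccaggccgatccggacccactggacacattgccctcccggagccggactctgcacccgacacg
Efemp2 (chr1:212211472-212211721, plus strand): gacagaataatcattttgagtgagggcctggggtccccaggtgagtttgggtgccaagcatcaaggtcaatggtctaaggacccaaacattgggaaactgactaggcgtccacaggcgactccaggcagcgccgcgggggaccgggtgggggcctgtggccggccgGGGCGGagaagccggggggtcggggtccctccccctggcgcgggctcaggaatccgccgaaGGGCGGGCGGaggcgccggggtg

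All 4 windows were rich in G and C, at 63.7% (Efemp1), 73.0% (Ltbp3), 71.0% (Ltbp4) and 71.0% (Efemp2) of the 300 bases, against a median of 51.7% over 33469 promoters. In the full windows Efemp2 held 5 GC boxes, counting overlapping copies, Ltbp4 held 3, and Ltbp3 and Efemp1 held 1 each. A GC box lay in 6 of the 9 member promoters and in 33.1% of all promoters. None of the 9 held a full estrogen response element (the half-site GGTCA and its inverted repeat with 3 free bases between), which 0.0269% of all promoters hold, or TATAAA, which 14.2% hold. The half-site GGTCA was in 2 members, Fbn2 and Efemp2 (40.5% of all promoters) and the AP-1 letters TGANTCA in 1, Efemp1 (7.33% of all). Efemp2 and Ltbp3 lie near each other on chromosome 1 in that assembly, with 16 coding genes between them.

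**Figure D1:**
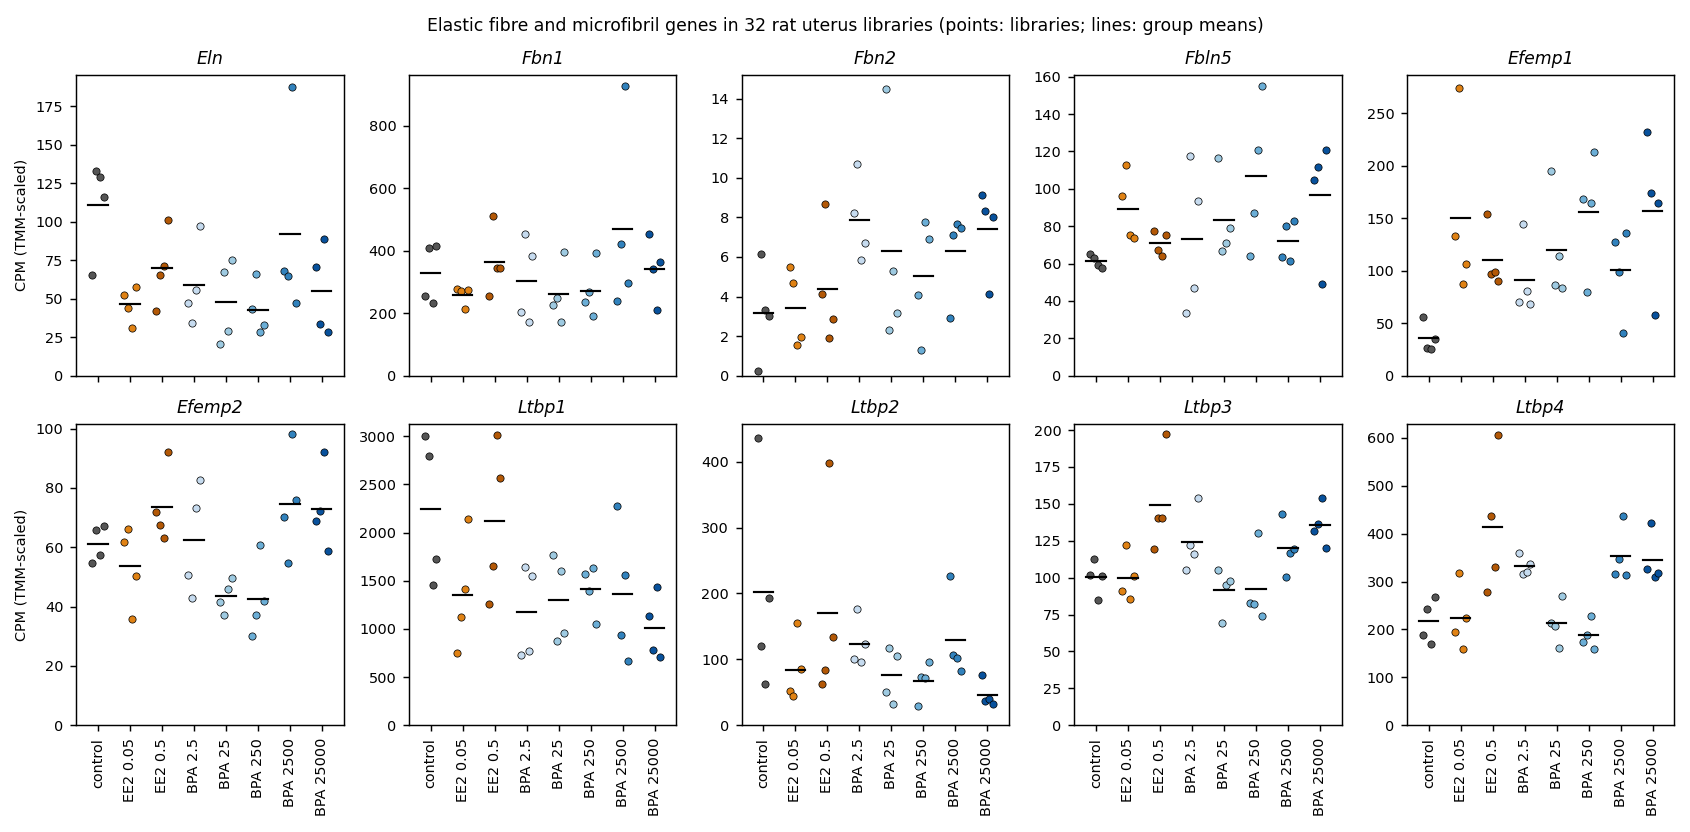
Level of each member in CPM (y axis, linear, from 0) in the 4 libraries of each group (x axis, daily doses in µg/kg), with a line at the group mean. Efemp1 lies above all controls in 27 of 28 exposed libraries, while Ltbp4 lies above them in all 4 libraries of EE2 0.5, BPA 2.5, BPA 2500 and BPA 25000 and overlaps them in the other exposed groups.

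Elastin itself was lower than in the controls in most exposed libraries, but in no comparison with control did the difference pass in edgeR. Eln (NCBI gene 25043) encodes tropoelastin, the soluble precursor of the elastic core. The 4 controls were at 65.3, 133, 129 and 116 CPM, with library 1 well below the other 3. EE2 0.05 was at 52.4, 43.8, 31.1 and 57.6 CPM, all below the lowest control (log2 fold change -1.26, SE 0.44, adjusted p = 0.27). BPA 250 was at 43.3, 66.1, 28.4 and 32.9 CPM, with only library 2 just above the lowest control. In edgeR that group came nearest to a call, at a log2 fold change of -1.37 (SE 0.44, adjusted p = 0.0501). It passed in limma voom (adjusted p = 0.00869), in DESeq2 (adjusted p = 0.0207) and without BPA 250 library 2 (adjusted p = 0.0286). By limma voom Eln also passed, lower, in EE2 0.05, BPA 2.5, BPA 25 and BPA 25000 (adjusted p = 0.0136, 0.0379, 0.0298 and 0.000232) and for the BPA and EE2 means (0.00185 and 0.0137). For the EE2 mean it passed with only the groups compared as well (adjusted p = 0.0351). BPA 25 was at 20.7, 67.2, 29.3 and 75.2 CPM (log2 fold change -1.20, adjusted p = 0.105), and its libraries split into a low and a higher pair. BPA 2500 did not share the low level, with 67.7, 64.7, 187 and 47.5 CPM (log2 fold change -0.27, adjusted p = 0.877), and its library 3 was the highest Eln value of the series. EE2 0.5, BPA 2.5 and BPA 25000 had means of 69.9 ± 24.6, 58.7 ± 27.3 and 55.2 ± 29.1 CPM (SD, n = 4), against 111 ± 31.2 CPM in the controls. Over the 28 exposed libraries, 17 lay below the lowest control and 1 lay above the highest. The mean of the 5 BPA groups differed from control by -0.95 (SE 0.32, adjusted p = 0.0988) and that of the 2 EE2 groups by -0.96 (SE 0.37, adjusted p = 0.203). The BPA and EE2 means differed from each other by 0.01 (SE 0.26). Without BPA 2500 library 3 the BPA mean passed (log2 fold change -1.09, adjusted p = 0.0402).

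No comparison of the fibrillins, which form the microfibrils, with control passed in edgeR. Fbn1 (NCBI gene 83727), the main fibrillin of adult tissue, was at 255, 409, 232 and 414 CPM in the controls. Its 7 group means ran from 259 ± 29.6 CPM in EE2 0.05 to 471 ± 313 CPM in BPA 2500 (SD, n = 4). The high mean and wide spread of BPA 2500 came from library 3 at 926 CPM, the same library that was highest for Eln, beside 238, 420 and 298 CPM. Log2 fold changes of Fbn1 against control lay between -0.34 and 0.52 over the 7 exposed groups, with a smallest adjusted p of 0.602. Its adjusted p was 0.346 among the 8 groups and 0.371 for the dose trend in edgeR, and by limma voom that trend passed (0.22 per 10-fold dose, adjusted p = 0.0263). Fbn2 (NCBI gene 689008), a fibrillin used mostly before birth, was near the limit of detection, with 3 to 211 counts per library. Control library 1 had only 0.259 CPM, the other controls 6.14, 3.33 and 2.99 CPM. BPA 2.5 had the highest mean, 7.87 ± 2.13 CPM against 3.18 ± 2.41 CPM (SD, n = 4), a log2 fold change of 1.30 (SE 0.63, adjusted p = 0.187). In all, 13 of the 28 exposed libraries lay above the highest control, 1 of them from EE2 0.5 and the others from BPA groups. With sample weights in limma voom Fbn2 passed in BPA 25000 (log2 fold change 1.76, adjusted p = 0.0118).

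Of the fibulins, Efemp1 stood out. Efemp1 (NCBI gene 305604) encodes fibulin-3, an extracellular glycoprotein related to the elastin-binding fibulins. The controls were at 56.2, 26.1, 25.0 and 35.1 CPM. BPA 250 was at 168, 80.0, 164 and 213 CPM, so its lowest library was above the highest control. The log2 fold change there was 2.13 (SE 0.43, adjusted p = 0.00845), and it held when each library of the 2 groups was left out in turn (adjusted p between 0.00317 and 0.0347). BPA 25000 was at 232, 174, 57.6 and 164 CPM (log2 fold change 2.14, SE 0.43, adjusted p = 0.0155), with library 3 just above the highest control and the other 3 well above it. BPA 25 was at 195, 86.6, 114 and 83.3 CPM (log2 fold change 1.75, SE 0.43, adjusted p = 0.0393). BPA 2.5 was at 70.5, 144, 81.1 and 67.9 CPM (log2 fold change 1.35, SE 0.42, adjusted p = 0.0352). In both groups every library was above every control. The lowest exposed library of the series was library 3 of BPA 2500, at 40.7 CPM beside 128, 99.1 and 135 CPM (log2 fold change 1.5, SE 0.42, adjusted p = 0.252).

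Under EE2 the levels of Efemp1 were in the range of those under BPA, but the EE2 comparisons did not pass in edgeR. EE2 0.05 was at 133, 274, 87.1 and 106 CPM (log2 fold change 2.08, SE 0.43, adjusted p = 0.0669). EE2 0.5 was at 154, 96.8, 98.8 and 89.97 CPM (log2 fold change 1.63, SE 0.42, adjusted p = 0.0632). Both groups lay wholly above the controls. By limma voom, DESeq2 and edgeR with only the groups compared, Efemp1 passed in EE2 0.05 (adjusted p = 0.00124, 0.000439 and 0.0457), EE2 0.5 (0.00467, 0.00788 and 0.0324) and for the EE2 mean (0.000745, 0.000209 and 0.0136). In the edgeR fit over all groups, the mean of the BPA groups was higher than control by 1.78 (SE 0.37, adjusted p = 0.0254) and that of the EE2 groups by 1.85 (SE 0.39, adjusted p = 0.0605). BPA and EE2 means differed by -0.08 (SE 0.24, adjusted p = 0.934), and the change per 10-fold BPA dose was 0.13 (SE 0.09, adjusted p = 0.399). The BPA calls outside BPA 250 were lost in some fits without 1 library, while the log2 fold changes stayed between 1.04 and 1.66 in BPA 2.5, 1.41 and 2.06 in BPA 25, 1.89 and 2.45 in BPA 25000, and 1.64 and 2.08 for the BPA mean. Adjusted p reached 0.122 for BPA 2.5, 0.164 for BPA 25, 0.0740 for BPA 25000 and 0.126 for the BPA mean, without control library 3, BPA 25 library 1, control library 2 and control library 2. With only the groups compared the calls in BPA 2.5 and for the BPA mean were lost (log2 fold change 1.32 and 1.77, adjusted p = 0.0764 and 0.0528). Without the 4 libraries that stood apart the call was lost in BPA 2.5 (log2 fold change 1.58, adjusted p = 0.0545). It was kept in BPA 25, BPA 250, BPA 25000 and the BPA mean (adjusted p = 0.0162, 0.0139, 0.00402 and 0.0121), and EE2 0.05, EE2 0.5 and the EE2 mean then passed too (adjusted p = 0.0254, 0.0451 and 0.0314).

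Fbln5 (NCBI gene 29158) encodes fibulin-5, which links elastin to microfibrils and to cell-surface integrins. Its controls lay close together, at 65.1, 62.8, 59.2 and 57.7 CPM. BPA 250 was at 64.1, 87.1, 121 and 155 CPM (log2 fold change 0.80, SE 0.30, adjusted p = 0.0828). BPA 25000 was at 105, 112, 48.9 and 121 CPM (log2 fold change 0.66, SE 0.30, adjusted p = 0.222). In each of these groups 1 library of those that stood apart, library 1 and library 3, was the lowest. BPA 2.5 was at 33.8, 118, 46.7 and 93.2 CPM (log2 fold change 0.25, SE 0.30, adjusted p = 0.626). Its libraries 1 and 3, which stood apart, lay below all controls. Without the 4 libraries that stood apart Fbln5 passed in BPA 250 (log2 fold change 0.99, adjusted p = 0.0121) and BPA 25000 (0.89, adjusted p = 0.00959). It also passed in BPA 2.5 (0.79, adjusted p = 0.0347), where that fit kept only libraries 2 and 4. The BPA mean passed as well (0.67, adjusted p = 0.0208). EE2 0.05 was at 96.0, 113, 75.1 and 73.7 CPM, all above the controls (log2 fold change 0.55, SE 0.30, adjusted p = 0.49). With all libraries Fbln5 passed, higher, by limma voom in EE2 0.05, BPA 250 and BPA 25000 (adjusted p = 0.0274, 0.00207 and 0.000281). It also passed by limma voom for the BPA mean (adjusted p = 0.0272) and by DESeq2 in BPA 250 (adjusted p = 0.0473). Of all 28 exposed libraries, 21 were above the highest control and 3 below the lowest.

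Efemp2 (NCBI gene 293677) encodes fibulin-4, which is needed for elastin crosslinking. Its controls were at 54.8, 65.7, 57.3 and 67.1 CPM. BPA 25 was at 41.4, 37.3, 45.9 and 49.8 CPM, all below the controls (log2 fold change -0.49, SE 0.22, adjusted p = 0.173), and BPA 250 at 30.1, 37.1, 60.9 and 41.9 CPM (-0.53, SE 0.22, adjusted p = 0.116). BPA 2500 and BPA 25000 were on the other side, at 74.7 ± 17.9 and 73.0 ± 14.1 CPM against 61.2 ± 6.07 CPM (SD, n = 4), and EE2 0.5 was at 73.6 ± 12.7 CPM. No comparison of Efemp2 with control passed in edgeR, yet the 8 groups differed (F test, adjusted p = 0.0131). By limma voom Efemp2 passed, lower, in BPA 25 and BPA 250 (-0.54 and -0.57, adjusted p = 0.031 and 0.0321), and in BPA 25 also with only the groups compared (adjusted p = 0.0452).

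Of the LTBPs, Ltbp1 and Ltbp2 were mostly at or below the control level after exposure, and Ltbp3 and Ltbp4 were above it in some groups. Ltbp1 (NCBI gene 59107), the classical carrier of latent TGF-beta, was at 3001, 2794, 1459 and 1726 CPM in the controls. BPA 25000 was at 1133, 778, 1436 and 706 CPM, below all controls (log2 fold change -1.15, SE 0.38, adjusted p = 0.0955). Without the libraries that stood apart it passed (log2 fold change -1.35, adjusted p = 0.0461). The other BPA means lay between 1173 ± 487 and 1413 ± 259 CPM against 2245 ± 766 CPM (SD, n = 4). EE2 0.05, at 745, 1122, 1417 and 2136 CPM, had a mean in that range too (log2 fold change -0.73, SE 0.38, adjusted p = 0.468). EE2 0.5, at 1259, 1658, 3008 and 2569 CPM, overlapped the controls (log2 fold change -0.08). The BPA and EE2 means of Ltbp1 differed by -0.45 (SE 0.22, adjusted p = 0.346). With all libraries Ltbp1 passed, lower, in BPA 25000 by limma voom and DESeq2 (adjusted p = 0.000957 and 0.0397). It also passed, lower, by limma voom in BPA 2.5 and for the BPA mean (adjusted p = 0.00883 and 0.00508).

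Ltbp2 (NCBI gene 59106) binds fibrillin but not TGF-beta. The controls were widely spread, at 436, 120, 62.5 and 193 CPM. BPA 25000 was at 76.9, 36.7, 40.3 and 31.7 CPM, with library 1 above the lowest control, and Ltbp2 fell there by 2.13 on the log2 scale (SE 0.58, adjusted p = 0.0464). The call was lost in 7 of 8 fits that left out 1 library, all but the one without BPA 25000 library 1, with an adjusted p of up to 0.161 without control library 1. It was also lost without the 4 libraries that stood apart (adjusted p = 0.0638), without a filter (adjusted p = 0.053) and with only the 2 groups fitted (adjusted p = 0.0783). BPA 25 and BPA 250 had log2 fold changes of -1.41 (SE 0.56, adjusted p = 0.129) and -1.58 (SE 0.57, adjusted p = 0.0722). EE2 0.05 had 51.6, 44.1, 156 and 85.3 CPM (log2 fold change -1.27, SE 0.56, adjusted p = 0.383). EE2 0.5 had 62.6, 83.5, 398 and 135 CPM, as widely spread as the controls. By limma voom Ltbp2 passed, lower, for the BPA mean (log2 fold change -1.16, adjusted p = 0.0215).

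Ltbp3 (NCBI gene 83838) carries latent TGF-beta in bone and vessel wall. Its controls were at 102, 113, 85.1 and 101 CPM. EE2 0.5 was at 119, 140, 140 and 198 CPM, above all controls (log2 fold change 0.57, SE 0.18, adjusted p = 0.106), and so was BPA 25000 at 132, 137, 154 and 120 CPM (0.43, SE 0.18, adjusted p = 0.169). EE2 0.05, BPA 25 and BPA 250 were level with the controls, with log2 fold changes of -0.01, -0.13 and -0.12 (SE 0.18 each). The 8 groups differed (F test, adjusted p = 0.00991). By limma voom Ltbp3 passed, higher, in EE2 0.5 and BPA 25000 (adjusted p = 0.032 and 0.0246), and by DESeq2 in EE2 0.5 (adjusted p = 0.0434).

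Ltbp4 (NCBI gene 292734) guides fibulin-5 and elastin onto microfibrils. The controls were at 188, 243, 171 and 268 CPM. EE2 0.5 was at 278, 438, 330 and 606 CPM, above all controls, and Ltbp4 rose there by a log2 fold change of 0.93 (SE 0.22, adjusted p = 0.0464). The call was lost in 7 of 8 fits without 1 library, all but the one without EE2 0.5 library 1, with an adjusted p of up to 0.234 without control library 3. It was also lost without a filter (adjusted p = 0.0509) and with only the groups compared (adjusted p = 0.0677). BPA 2.5 was at 359, 316, 320 and 337 CPM, BPA 2500 at 315, 347, 437 and 314 CPM and BPA 25000 at 327, 423, 310 and 317 CPM. These 3 groups lay above all controls too, but with log2 fold changes of 0.61, 0.70 and 0.66 and adjusted p-values of 0.0606, 0.264 and 0.0895 they did not pass in edgeR. By DESeq2 Ltbp4 passed in BPA 2.5 and BPA 25000 (adjusted p = 0.0333 and 0.0400). It also passed in BPA 25000 by limma voom (adjusted p = 0.00568) and in BPA 2.5 with the filter of 1 CPM in 16 libraries (adjusted p = 0.0497). BPA 25, at 214, 207, 162 and 269 CPM, and BPA 250, at 174, 188, 229 and 160 CPM, overlapped the controls. Of the 10 members, Ltbp4 had the smallest adjusted p for any difference among the 8 groups (0.000603), and at most 0.00175 with any 1 library left out.

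**Figure D2:**
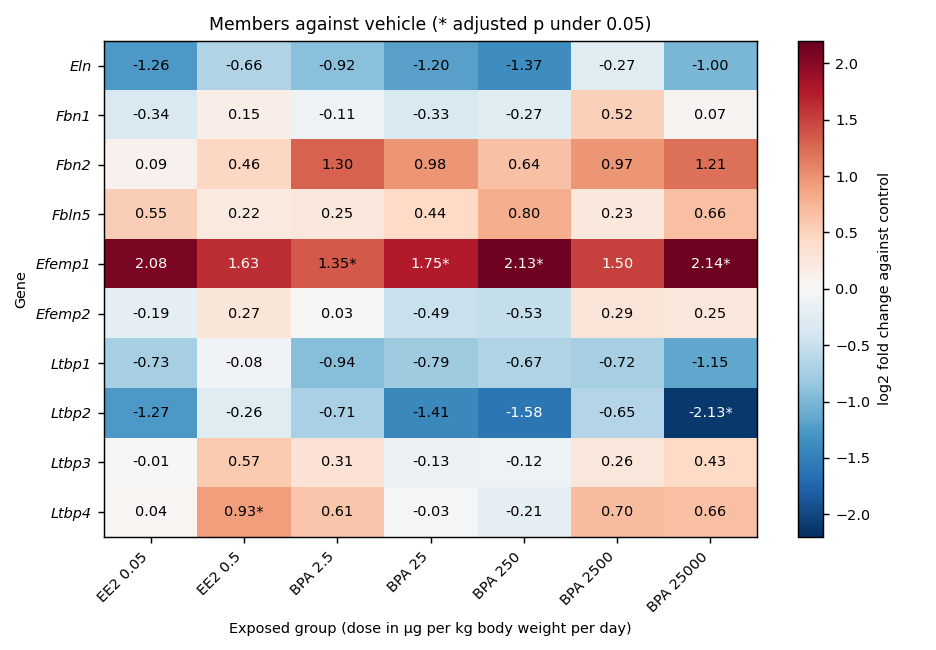
Log2 fold change of each member (rows) in each exposed group against vehicle (columns, daily doses in µg/kg), coloured from blue (lower) to red (higher), with a star where the adjusted p is under 0.05. Efemp1 is the only row with more than 1 star, and the Ltbp3, Ltbp4 and Efemp2 rows turn to 0 or below in BPA 25 and BPA 250.

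Counted over the 10 members, few passed in any comparison with control. In EE2 0.05 no member passed in edgeR (3 at an unadjusted p under 0.05, 3 by limma voom and 1 by DESeq2), against 0.0451% of all genes in edgeR. Of the 13312 genes, 1528 had an unadjusted p under 0.05 there, 1375 passed by limma voom and 65 by DESeq2. In EE2 0.5 Ltbp4 alone passed (0.556% of all genes). In BPA 2.5, BPA 25 and BPA 250 Efemp1 alone passed, against 11.4%, 1.92% and 8.79% of all genes. In BPA 2500 no member passed in edgeR (2 at an unadjusted p under 0.05, 0 by limma voom and 1 by DESeq2), and 0.0% of all genes did. Of the 13312 genes, 1353 had an unadjusted p under 0.05 there, 0 passed by limma voom and 87 by DESeq2. In BPA 25000 Efemp1 and Ltbp2 passed (2.32% of all genes). For the BPA mean Efemp1 passed (1.34%). For the EE2 mean no member passed in edgeR (3 at an unadjusted p under 0.05, 2 by limma voom and 1 by DESeq2), against 0.0676% of all genes in edgeR. Of the 13312 genes, 2001 had an unadjusted p under 0.05 there, 1856 passed by limma voom and 333 by DESeq2. Neither the BPA mean against the EE2 mean nor the trend with BPA dose had a member that passed in edgeR, against 0.841% and 4.62% of all genes. At an unadjusted p under 0.05 there was 1 member in each, against 1902 and 3034 genes. By limma voom 0 and 2 members passed, against 510 and 2703 genes. By DESeq2 0 and 0 members passed, against 383 and 1073 genes. At 11.4% and 8.79%, the share of all genes called in BPA 2.5 and BPA 250 was close to 1 in 10 members. The median log2 fold change of the members lay between -0.24 (BPA 250) and 0.34 (BPA 25000), and that of all genes between -0.02 and 0.05.

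The F test for any difference among the 8 groups called Ltbp2, Ltbp3, Ltbp4, Efemp1 and Efemp2, 5 of 10 members, against 31.7% of all genes. Ltbp2 lost this call in 14 of 32 fits without 1 library and without the 4 that stood apart (adjusted p = 0.112). Without those 4, Fbln5 gained it (adjusted p = 0.00357, against 0.271 with all libraries). Members also lay wholly outside the range of the controls in places: Efemp1, Fbln5 and Eln in EE2 0.05 (11.4% of all genes were so separated), Ltbp3, Ltbp4 and Efemp1 in EE2 0.5 (12.8%), and Ltbp4 and Efemp1 in BPA 2.5 (12.2%). So did Efemp1, Efemp2 and Fbln5 in BPA 25 (20%), Efemp1 in BPA 250 (19.3%), Ltbp4 in BPA 2500 (7.97%), and Efemp1, Ltbp1, Ltbp3 and Ltbp4 in BPA 25000 (13.3%).

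Groups that were exposed were then compared with each other, in 21 pairs added after the data were seen, because Ltbp3, Ltbp4 and Efemp2 had opposite levels at different BPA doses. BPA 25 and BPA 250 were lower than EE2 0.5 in Ltbp3, Ltbp4 and Efemp2, 3 of 10 members in each pair, against 15.7% and 21.4% of all genes. The same 3 genes were higher in BPA 25000 than in BPA 25 and BPA 250 (16.9% and 22.2% of all genes). Ltbp4 and Efemp2 were also higher in BPA 2500 than in BPA 25 and BPA 250 (8.46% and 14.4%), and Ltbp4 alone was lower in BPA 25 and BPA 250 than in BPA 2.5 (20.6% and 29.9%). The steepest of these differences was that of Ltbp4 between BPA 250, at 188 ± 29.8 CPM, and EE2 0.5, at 413 ± 145 CPM (SD, n = 4; log2 fold change -1.14, SE 0.22, adjusted p = 0.000938). Members passed in 8 of the 21 pairs, with 18 calls among 210 tests. In the other 13 pairs no member passed in edgeR, and 0 to 4 had an unadjusted p under 0.05. Of the 13312 genes, 236 to 2805 had an unadjusted p under 0.05 in these pairs. All genes called there came to 0.015% (EE2 0.5 against EE2 0.05, and BPA 2500 against EE2 0.05), 0.00751% (BPA 25 against EE2 0.05), 1.6% (BPA 250 against EE2 0.05), 3.55% and 1.89% (BPA 2.5 against the EE2 doses), 2.53% (BPA 25000 against BPA 2.5) and 0.0% in the remaining 6. All 18 were of Ltbp3, Ltbp4 or Efemp2. Without the 4 libraries that stood apart, Fbln5 also passed between BPA 250 and both EE2 0.5 and BPA 2500 (adjusted p = 0.0072 and 0.0141), and 6 of the 18 were lost. Emilin1, which encodes another protein of elastic fibres and is not a member, fell against control in BPA 25 and BPA 250, as described below. Its differences between pairs of exposed groups are not given here.

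Some members also varied together from library to library. Over 45 pairs of members and 32 libraries, 12 correlations of log2 CPM had an adjusted permutation p under 0.05 by Pearson's r, 8 positive and 4 negative, and 10 by Spearman's rho, 8 by both. Ltbp3 and Ltbp4 had r = 0.81 and rho = 0.75, Ltbp3 and Efemp2 r = 0.78 and rho = 0.76, and Ltbp4 and Efemp2 r = 0.72 and rho = 0.68 (largest adjusted permutation p of the 3 pairs 0.000225 for r and 0.00027 for rho). Without the 2 libraries farthest from the median of the first gene, r was 0.78, 0.74 and 0.66. Taken as deviations from the group means, which removes the differences between groups, r was 0.56, 0.64 and 0.48.

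Eln and Efemp1 were negatively correlated, with r = -0.77 and rho = -0.72 (adjusted permutation p = 0.00015 and 0.000225), -0.74 without the 2 farthest libraries and -0.70 within groups. The 2 controls lowest in Efemp1, libraries 2 and 3, were the 2 highest in Eln, and BPA 2500 library 3, the highest Eln of all, had the lowest Efemp1 of the exposed libraries. Efemp1 and Fbln5 were positively correlated (r = 0.66, rho = 0.74, adjusted permutation p = 0.00045 and 0.00027; 0.69 without the 2 farthest libraries and 0.61 within groups), and Eln and Fbln5 were opposed (r = -0.52, rho = -0.58, adjusted permutation p = 0.0184 and 0.00517; -0.47 and -0.38). The pair of fibrillin and elastin, Fbn1 and Eln, had r = 0.46 (rho = 0.39, adjusted permutation p = 0.0315 and 0.0906), 0.27 without the 2 farthest libraries and 0.39 within groups. The 45 correlations share the same libraries and scaling. The permutations exchanged libraries across groups, so their p-values also take in differences between groups. No p-value was computed for r within groups, and the share of correlated pairs among all genes was not counted.

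**Figure D3:**
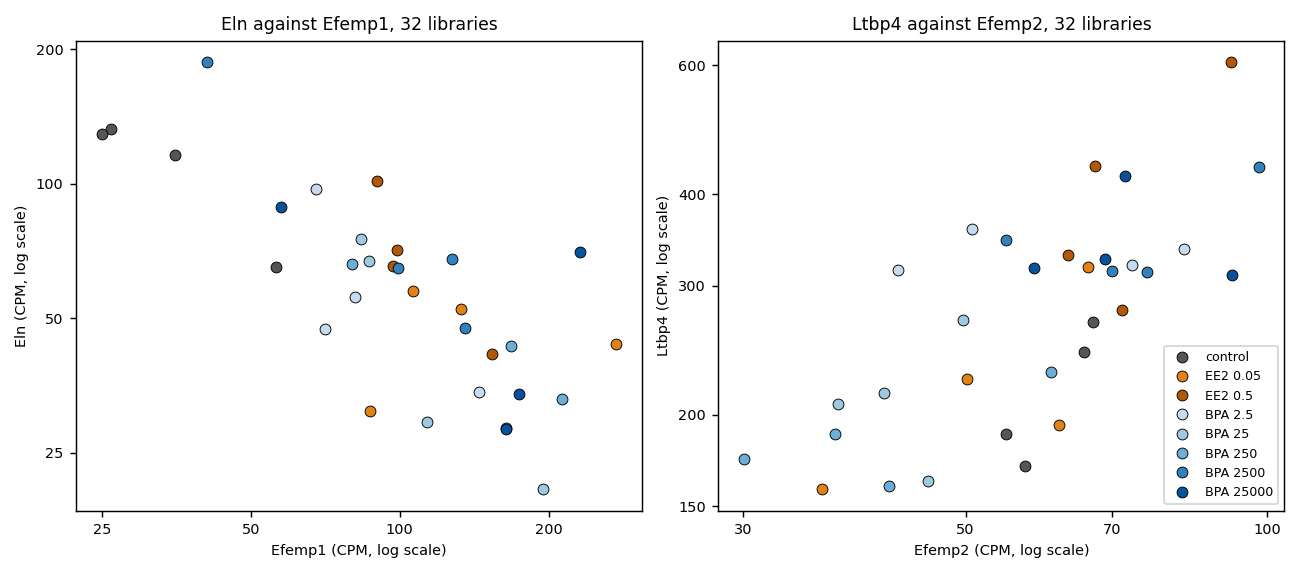
Eln against Efemp1 (left) and Ltbp4 against Efemp2 (right) in CPM, both axes on a log scale, each point 1 of 32 libraries coloured by group. The left cloud falls from the controls at the upper left (r = -0.77) and the right cloud rises from BPA 25 and BPA 250 at the lower left (r = 0.72).

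**Figure D4:**
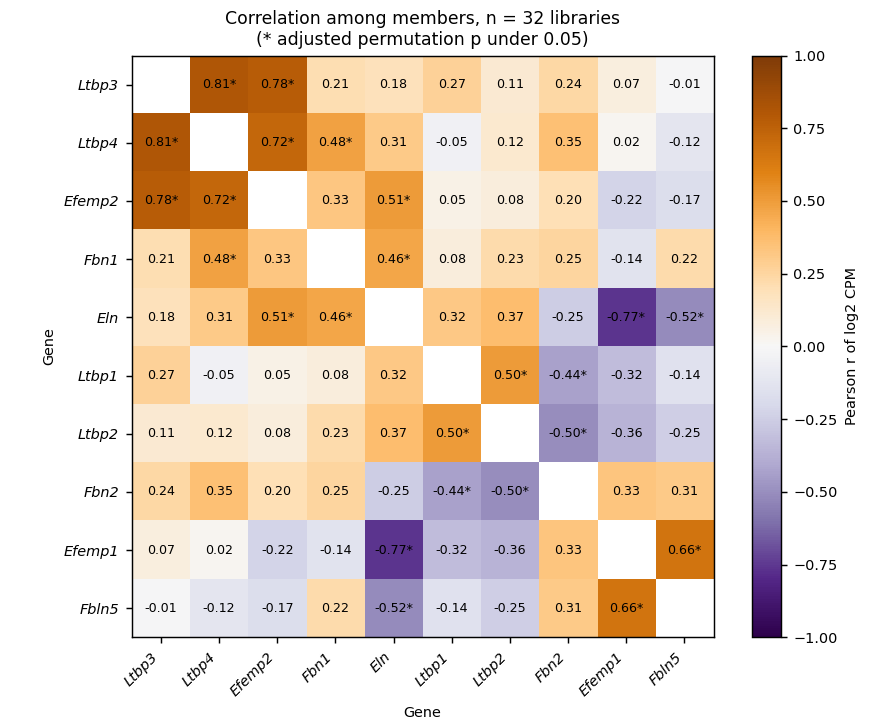
Pearson r of log2 CPM between each pair of members over 32 libraries, from purple (negative) to orange (positive), with a star where the adjusted permutation p is under 0.05. Ltbp3, Ltbp4 and Efemp2 form the block of highest values, and Efemp1 and Fbln5 are negative with Eln.

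By the same measure, the 5 genes outside the list most like Eln over the 32 libraries were Adgrb1 (r = 0.87), Gars1, Tubb2a, Map1a and Gadd45g (the lowest r = 0.86), and Adgrb1, Tubb2a and Gadd45g were again among the 5 most like it within groups. Fbn1 was most like Tln1 (r = 0.85), Parva, Dchs1, Syt1 and Col5a1 (r = 0.77), 4 of which, all but Syt1, recurred within groups. Efemp1 was added to this search after its values were seen, and Pamr1, Enpep, Dpp7 and Sox4 (r = 0.87 each) were among the genes most like it.

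Marker sums of cell types of the uterine wall lay outside the control range in many exposed libraries. In each comparison with control, edgeR called 0 or 1 of 10 smooth muscle genes and 0 or 1 of 8 stromal fibroblast genes. Of all genes, 0.0% (BPA 2500) to 11.4% (BPA 2.5) were called in these comparisons. Pericyte genes were called higher in BPA 2.5 (1 of 4) and in BPA 25000 (2 of 4, against 2.32% of all genes). Ciliated cell genes were called higher in BPA 2.5 (6 of 6), in BPA 25 and for the BPA mean (1 of 6 each). Of 2 uterine tissue genes tested, 1 was called lower in BPA 2.5. The summed markers of smooth muscle (10 genes, all detected) were at 20620 to 40087 CPM in the controls and at 12832 to 31534 CPM in the exposed libraries, 15 of 28 of them below the lowest control. Of the 13 exposed libraries within the control range, Eln was below its lowest control in 5 and above its highest in 1. In the same 13, Efemp1 was above its highest control in 12. Fbln5 was above all controls in 10 and below all in 1, and Ltbp1 below all in 5 and above all in 1. The markers of stromal fibroblasts (8 genes, all detected) were at 1566 to 2453 CPM in the controls and above that in 20 of 28 exposed libraries, up to 3604 CPM. Of the 7 exposed libraries within the control range, Efemp1 was above all controls in 7 and Eln below all in 5. Fbln5 was above all in 3 and below all in 2, and Ltbp1 below all in 3 and above all in 1. Pericyte and macrophage markers were above the control range in 20 and 23 of 28 exposed libraries, and fat cell markers (8 genes) in 6. Of the 8 exposed libraries within the control range of pericyte markers, Efemp1 was above all controls in 7 and Fbln5 in 6. In the same 8, Eln was below all in 2 and above all in 1, and Ltbp1 below all in 4. Markers of stratified epithelium (4 genes tested) were at 0.652 to 1.63 CPM in the controls, at 0.512 to 371 CPM in EE2 0.05, 27.02 to 218 CPM in EE2 0.5 and 14.8 to 29.6 CPM in BPA 2.5, with 2 of 4 genes called higher in each of these groups. In the other exposed groups that sum was at most 3.60 CPM. The counts of libraries within a control range are no test. The part of these shifts in the members' levels was not tested. In whole uterus fewer cells of a type and less RNA per cell cannot be told apart.

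The remaining genes of the pathway were taken from lists of 95 genes, of which 80 are in the table. Among the 12 tested of 20 other microfibril and elastic fibre proteins, 1 fell in BPA 25 and 2 in BPA 250, where 1.92% and 8.79% of all genes were called. Emilin1, which encodes a glycoprotein between elastin and microfibrils, was at 114, 129, 110 and 135 CPM in the controls. It fell in BPA 25, at 49.2, 52.4, 69.9 and 70.3 CPM, by 1.01 on the log2 scale (SE 0.21, adjusted p = 0.0273). It fell in BPA 250, at 64.0, 60.6, 77.1 and 61.1 CPM, by 0.89 (SE 0.21, adjusted p = 0.0149). In both groups all libraries were below all controls. The first call was lost in 6 of 8 fits without 1 library (adjusted p up to 0.135, without BPA 25 library 1) and the second in 1 (0.0595, without BPA 250 library 1). Over the BPA groups Emilin1 rose with dose, by 0.17 per 10-fold dose (adjusted p = 0.0393), a call lost in 11 of 16 fits without 1 library and without the 4 that stood apart (adjusted p = 0.326). Vwa1, a matrix protein of basement membranes, fell in BPA 250 by 1.45 (SE 0.40, adjusted p = 0.0265), a call lost in 4 of 8 fits without 1 library, most without control library 1 (adjusted p = 0.129), which at 53.5 CPM was the highest control. It was also lost without the 4 libraries that stood apart (-1.34, adjusted p = 0.0532). Mfap3 and Adamts10 differed among the 8 groups (adjusted p = 0.00118 and 0.00697) without a call against control. That F test called 4 of the 12 genes, near the 31.7% of all genes.

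Of the 5 elastin crosslinking enzymes, Loxl4 fell in BPA 2.5 by 1.01 on the log2 scale (SE 0.33, adjusted p = 0.0465), where 11.4% of all genes were called. The log2 fold change shrank to -0.59 (adjusted p = 0.441) without the libraries that stood apart. This call was also lost in 6 of 8 fits without 1 library (adjusted p up to 0.179, without BPA 2.5 library 1). It was lost too with DESeq2 size factors (adjusted p = 0.0511), without a filter (0.0551), with 1 CPM in 16 libraries (0.0511) and with only the groups compared (0.151). Loxl1, the lysyl oxidase that fibulin-5 recruits, rose with BPA dose by 0.20 per 10-fold dose (SE 0.06, adjusted p = 0.0436), a call lost in 13 of 16 fits without 1 library, without the 4 libraries that stood apart (adjusted p = 0.181) and by limma voom (adjusted p = 0.0736). Of 10 elastin-degrading enzymes 0 were called in edgeR in any of the 12 contrasts (6 at an unadjusted p under 0.05, 6 by limma voom, 3 by DESeq2). The most abundant, Ctsl, was at 543 CPM in the controls and had log2 fold changes of 0.18 to 0.78, and Mmp2, at 442 CPM, had -0.04 to 0.72. Of 6 collagen fibre genes 0 were called in edgeR (2 at an unadjusted p under 0.05, 6 by limma voom, 1 by DESeq2). For scale, the F test alone, 1 of the 12 contrasts, called 4220 of 13312 genes in edgeR, 9225 by limma voom and 5767 by DESeq2. At an unadjusted p under 0.05 it had 6003 genes in edgeR. The share of all genes over the 12 contrasts together was not counted. Col1a2 and Col1a1, the chains of type I collagen, had their lowest log2 fold changes in BPA 2.5 (-0.74 and -1.21, adjusted p = 0.32 and 0.149).

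TGF-beta ligands and receptors, which the LTBPs serve, had 1 of 10 called higher in each of BPA 2.5, BPA 250 and BPA 25000, where 11.4%, 8.79% and 2.32% of all genes were called. Tgfb3 rose in BPA 2.5, from 10.6 ± 3.28 to 23.6 ± 6.14 CPM (SD, n = 4; log2 fold change 1.16, SE 0.30, adjusted p = 0.0122), a call lost only without control library 3 (adjusted p = 0.0546) among the 8 fits without 1 library. Tgfb2 rose in BPA 250, where libraries 1 and 3 had 884 and 518 CPM and libraries 2 and 4 had 112 and 140 CPM, against 76.9, 132, 84.6 and 79.0 CPM in the controls (log2 fold change 2.15, SE 0.58, adjusted p = 0.0241). It was lost in 4 of 8 fits without 1 library, most without BPA 250 library 1 (1.48, adjusted p = 0.124), and without the 4 libraries that stood apart (adjusted p = 0.0656). Tgfbr2, a receptor chain, rose in BPA 25000 from 118 ± 16.97 to 222 ± 53.3 CPM (0.91, SE 0.24, adjusted p = 0.0391; up to 0.141 without BPA 25000 library 2). It also rose with BPA dose by 0.23 per 10-fold dose (adjusted p = 0.0229), lost in 3 of 16 fits without 1 library and without the 4 that stood apart (adjusted p = 0.0783). Of the TGF-beta responsive genes described here, Ccn2 rose in BPA 2.5 and BPA 250 (1.52 and 1.57, adjusted p = 0.0316 and 0.0356; up to 0.0999 without control library 3 and up to 0.166 without BPA 250 library 3). In these groups 11.4% and 8.79% of all genes were called. In BPA 2.5 the call of Ccn2 was also lost without the 4 libraries that stood apart (1.47, adjusted p = 0.121). Tgfbi rose in EE2 0.5 (1.25, adjusted p = 0.0398, and up to 0.195 without control library 3), where 0.556% of all genes were called. Of 6 activators of latent TGF-beta, Thbs1 rose in BPA 25000 (1.44, adjusted p = 0.0452, and up to 0.15 without control library 2). In that group 2.32% of all genes were called.

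Of 10 proteoglycans and matrix partners, 3 rose in BPA 250, against 8.79% of all genes called. Decorin (Dcn), which coats collagen and binds TGF-beta, went from 3798 ± 936 to 11331 ± 830 CPM (SD, n = 4; log2 fold change 1.58, SE 0.40, adjusted p = 0.0186), with all 4 libraries above all controls. Lum and Aspn, related small proteoglycans, rose by 1.61 and 1.35 (adjusted p = 0.0297 and 0.0428). Left out in turn, single libraries took these calls to adjusted p-values of up to 0.0564 for Dcn (without control library 4), 0.0853 for Lum (without control library 3) and 0.205 for Aspn (without BPA 250 library 4). Of 8 inhibitors, Timp4 rose in BPA 2.5 (2.82, SE 0.65, adjusted p = 0.00636), where 11.4% of all genes were called. BPA 2.5 libraries 1 and 3, which stood apart, had 17.6 and 11.1 CPM and library 4 had 1.15 CPM. Without those libraries the log2 fold change was 1.47 (adjusted p = 0.189). Of 5 genes of the elastin receptor complex and fibre-binding integrins, Ctsa rose in BPA 25000 (0.76, adjusted p = 0.0441; up to 0.147 without control library 2; 2.32% of all genes called), and Neu1 and Itga8 differed among the 8 groups (adjusted p = 0.00215 and 0.0252), Tgfbr1 of the receptor list as well (adjusted p = 0.0233). Glb1, the galactosidase of that complex, rose with BPA dose by 0.17 per 10-fold dose (adjusted p = 0.0397; 0.128 without the 4 libraries that stood apart). The F test called 2 of these 5 genes and 5 of 10 TGF-beta ligands and receptors, against 31.7% of all genes.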

How the data were processed

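RNA of 32 rat uterus libraries was sequenced on Illumina instruments. The authors deposited 1 table of raw counts (whole numbers) for each gene and library. Per the submitters' processing notes, bcl2fastq, TopHat and edgeR were used with build rn5; their versions, the annotation and the handling of strand were not given in the sources used here. NCBI gene IDs were matched to symbols through a RefSeq table of assembly GRCr8, for names only: 17167 of 17327 matched, and the 160 others held 1.82% of counts. Every column was mapped to its library, and within groups all pairs of libraries differed by more than sampling noise.

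The members and lists were chosen with earlier results of these data known. Tests used edgeR 4.0.16 (R 4.3.3): filterByExpr (minimum count 10, minimum total 15, 13312 genes), TMM, 1 mean per group over 8 groups, and the quasi-likelihood test with Benjamini-Hochberg adjustment at 0.05. Contrasts were 7 exposed groups, the BPA mean and the EE2 mean against control, BPA mean against EE2 mean, a linear trend over log10 BPA dose, and an F test over 8 groups. Correlations used log2 CPM (prior count 2) and two-sided permutation tests (100000 resamples, smallest p 1e-05), adjusted over 45 pairs. The text names all members; of each list up to 4 genes with the smallest adjusted p under 0.05, or the 2 of highest CPM; and the 5 genes most like Eln and Fbn1. Some results that this rule would name are not reported here. Motifs were sought in RefSeq promoters of 300 bases; the promoter of Eln was not used here.

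Alternatives were DESeq2 size factors, no filter, 1 CPM in 16 libraries, a robust spread, limma 3.58.1 voom with sample weights, DESeq2 1.42.0, only the groups compared, a threshold of 0.1, and each library left out. The steps were tested on simulated counts. The total count limits precision: 3 counts, the floor for a gene at 0, are a small part of a CPM at every depth here.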

Additional observations from a re-analysis of the deposited data

Results flagged for a closer look

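Of 80 sets of 4 libraries (10 members in 8 groups), 5 held a library far from the other 3 in that its gap to the nearest was most of the range; chance alone gives about 1 in 20. Fbn1 in EE2 0.05 was lowest in library 3, at 215 CPM. Fbn2 was lowest in BPA 2500 library 1, at 2.92 CPM, and in BPA 25000 library 3, at 4.12 CPM. Ltbp4 was highest in BPA 25000 library 2, at 423 CPM. Fbln5 was lowest in BPA 25000 library 3, at 48.9 CPM, a library that stood apart from the rest in its correlations.

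The other results were differences between exposed groups, whose contrasts were added after the data were seen (edgeR, adjusted over all genes). Ltbp3 differed from EE2 0.5 by -0.70 in BPA 25 and -0.69 in BPA 250 (adjusted p = 0.00995 and 0.00741), and BPA 25000 differed from BPA 25 and BPA 250 by 0.56 and 0.55 (adjusted p = 0.0287 and 0.0254). Ltbp4 differed from EE2 0.5 by -0.96 in BPA 25 and -1.14 in BPA 250 (adjusted p = 0.00536 and 0.000938), and from BPA 2.5 by -0.64 and -0.83 (adjusted p = 0.0331 and 0.00543). Ltbp4 was higher than in BPA 25 and BPA 250 by 0.73 and 0.91 in BPA 2500 (adjusted p = 0.0352 and 0.00695) and by 0.69 and 0.88 in BPA 25000 (adjusted p = 0.0265 and 0.00507). Efemp2 differed from EE2 0.5 by -0.76 in BPA 25 and -0.80 in BPA 250 (adjusted p = 0.0223 and 0.0125). It was higher than in BPA 25 and BPA 250 by 0.78 and 0.82 in BPA 2500 (adjusted p = 0.0305 and 0.0151) and by 0.74 and 0.78 in BPA 25000 (adjusted p = 0.0217 and 0.0127).

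Of the 18 calls, 6 were kept in each of 8 fits without 1 library: Ltbp3 between BPA 250 and EE2 0.5, and Ltbp4 between EE2 0.5 and both BPA 25 and BPA 250, between BPA 250 and BPA 2.5, and between BPA 250 and both higher doses. Without the 4 libraries that stood apart, 6 of the 18 were lost: Ltbp4 in BPA 25 and BPA 250 against BPA 2.5 (adjusted p = 0.132 and 0.0856), and Ltbp3 and Efemp2 in BPA 25000 against BPA 25 (adjusted p = 0.0815 and 0.0731) and against BPA 250 (adjusted p = 0.159 and 0.166). The same fit gave 2 further calls, Fbln5 in BPA 250 against EE2 0.5 (0.77, adjusted p = 0.0072) and in BPA 2500 against BPA 250 (-0.75, adjusted p = 0.0141).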

How the results depend on the processing

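No paired analysis was possible because the labels give no replicate numbers shared across groups. Over the members, list genes and correlations, 0 results reversed; apart from fits without 1 library, 974 values kept their side of the threshold, 61 passed newly, 56 no longer passed and 5 correlations moved. Not in those counts are 51 uncalled differences under 1.5 standard errors, of which 26 took the other sign in at least 1 setting.

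The number of members called (comparisons not named in a sentence were within 1.5 times) was as follows. At a threshold of 0.1 it was 1 in EE2 0.05, 2 in EE2 0.5, 2 in BPA 2.5, 4 in BPA 250, 4 in BPA 25000, 4 for the BPA mean and 1 for the EE2 mean. Without a filter it was 0 in EE2 0.5 and 1 in BPA 25000. With 1 CPM in 16 libraries it was 2 in BPA 2.5, and with a robust spread 1 in BPA 25000. With limma voom it was 3 in EE2 0.05, EE2 0.5, BPA 2.5 and BPA 25, 4 in BPA 250, 8 in BPA 25000, 5 for the BPA mean, 2 for the EE2 mean, 2 for the trend and 8 among the 8 groups. With DESeq2 it was 1 in EE2 0.05, 3 in EE2 0.5, 2 in BPA 2.5, 3 in BPA 250, 1 in BPA 2500, 4 in BPA 25000 and 1 for the EE2 mean. With only the groups compared it was 1 in EE2 0.05, 0 in BPA 2.5, 2 in BPA 25, 2 in BPA 250, 1 in BPA 25000, 0 for the BPA mean and 2 for the EE2 mean. Without the 4 libraries that stood apart, chosen after seeing the data, it was 1 in EE2 0.05, 2 in EE2 0.5, 2 in BPA 250, 2 for the BPA mean and 1 for the EE2 mean. Leaving out 1 library gave 0 to 1 in EE2 0.5, BPA 2.5, BPA 25, for the EE2 mean and for the trend, 1 to 2 in BPA 250, 0 to 2 in BPA 25000 and for the BPA mean, and 4 to 6 among the 8 groups. The cause of these differences was not tested.

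The tools also differed over all genes: edgeR, limma voom and DESeq2 called 6, 1375 and 65 genes in EE2 0.05, 74, 1221 and 442 in EE2 0.5, 256, 2650 and 1080 in BPA 25, and 309, 4116 and 770 in BPA 25000. With 3 to 211 counts per library, Fbn2 was the member most limited by depth.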
